A study of Mus musculus with 12 samples.

Results

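Bergmann glia and astrocytes are the astroglia of the cerebellum, and 31 of their marker genes were followed here in messenger RNA from whole mouse cerebella. The 31 genes were chosen by name, as rows of the raw count table whose symbol is that of a known astroglial marker, and all 31 were among the 18394 genes of the table. Stranded mRNA sequencing covered 12 mice, 6 wild type (WT) and 6 whose genotype label is a knockout of Crfr1 by Δα6-Cre (cKO). Crfr1, listed in the table as Crhr1, binds corticotropin-releasing factor, a peptide of the stress response. The driver is named after a GABA-A receptor subunit gene, Gabra6, that is a classical marker of cerebellar granule cells. Age, sex, strain background and litter are not in the labels. Mice with Δα6-Cre but an intact receptor are not among the groups, so what the Cre line itself contributes, what receptor loss contributes and what DNA linked to either contributes cannot be told apart. The comparison asks whether astroglial transcripts of the cerebellum differ between cKO and WT mice.

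Libraries held 23803779 to 62104185 counts. Counts per gene did not check the genotype label: Crhr1 had a log2 fold change of 0.02 (95% interval −0.06 to 0.10, edgeR adjusted p = 0.889), and such counts can also hold reads from undeleted exons and from cells the driver does not reach. Gabra6, the gene the driver is named after, was 23.3% lower in cKO (edgeR adjusted p = 1.45e-05), with no overlap between the genotypes.

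Bergmann glia stand beside Purkinje cells and send radial fibres through the molecular layer, where they wrap the synapses of granule cell axons. Other astrocytes occupy the granular layer and the white matter. Both kinds clear glutamate and potassium from the extracellular space, are coupled by gap junctions and secrete proteins that act on neurons and on the matrix. In injury or disease they can turn reactive, a state in which Gfap is typically high.

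Every marker was well measured. All 31 passed the filter on low counts, and the smallest count of any of them in any library was 590, for Fabp7. Together they made up 12380 to 12901 CPM in the WT libraries and 12494 to 13083 CPM in the cKO libraries (CPM, read counts relative to the TMM-adjusted size of each library). Levels of different genes are compared here only per length, as RPKM over the union of annotated exons. In WT libraries Sparcl1, a secreted matrix protein of astroglia, had the highest level, at 762 ± 7.12 RPKM (SD, n = 6). The sodium pump subunit Atp1b2 and the calcium-binding protein S100b followed at 319 ± 10.7 and 278 ± 6.96 RPKM (SD, n = 6). The transcription factor Sox9 had the lowest level, at 8.32 ± 0.675 RPKM (SD, n = 6). The glutamate transporter Slc1a3, typical of Bergmann glia, stood at 170 ± 2.73 RPKM and its relative Slc1a2, the main glutamate transporter of forebrain astrocytes, at 63.0 ± 1.58 RPKM (SD, n = 6).

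**Figure D1:**
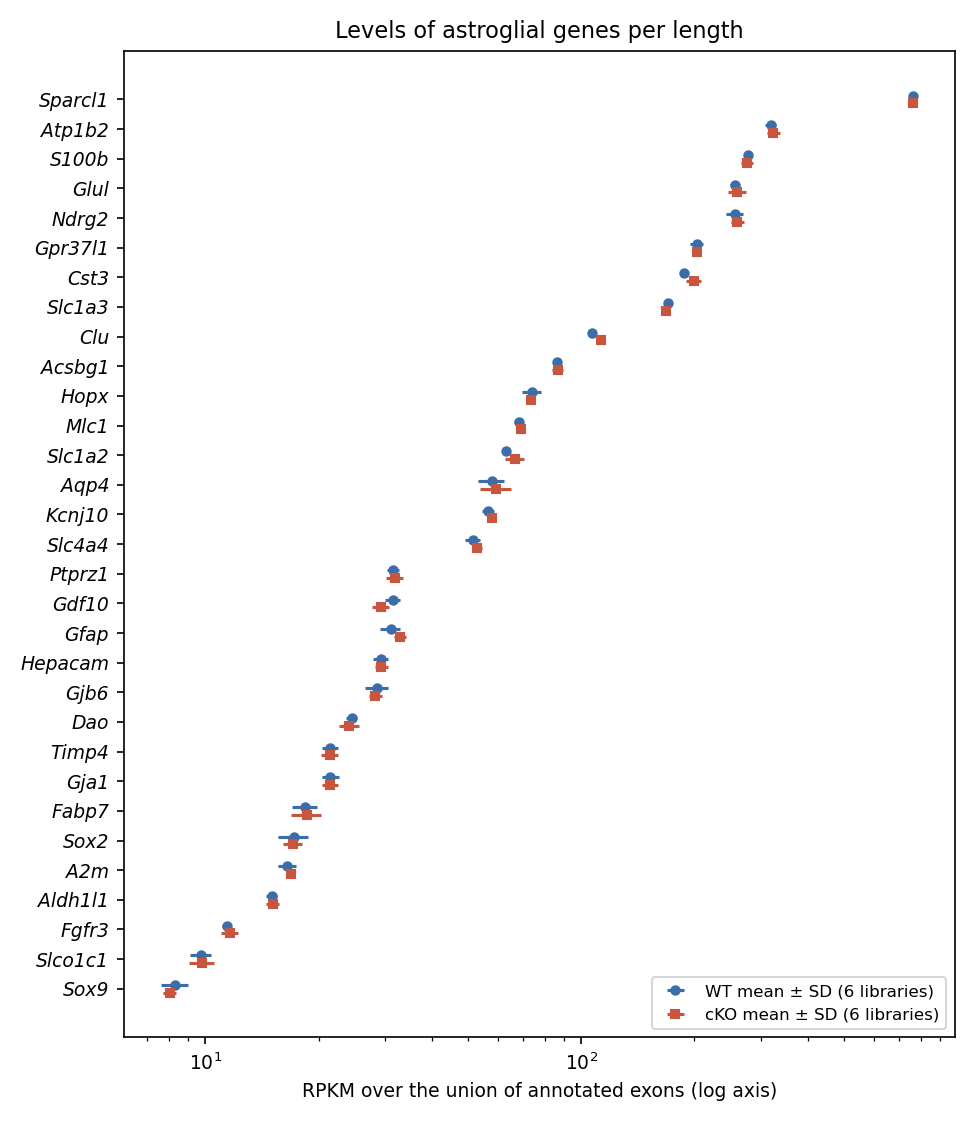
Level of each astroglial gene in RPKM (horizontal log axis), as the mean of 6 WT libraries (blue circles) and 6 cKO libraries (red squares) with bars of 1 SD. WT means run from 8.32 for Sox9 to 762 for Sparcl1, and the paired cKO means lie close to them.

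Of the 31 genes, 0 were called higher and 0 lower in cKO by the quasi-likelihood test of edgeR with Benjamini-Hochberg adjustment over all 15467 genes tested. Over all genes tested, 2.64% were called, 1.27% higher and 1.38% lower in cKO. At an unadjusted p under 0.05 the test marked 5 of the 31 (16.1%), namely Clu, Cst3, Slc1a2 and Gfap with higher and Gdf10 with lower means in cKO, against 14.2% of all genes tested. DESeq2 called 1 of the 31, Clu, against 3.72% of all genes with an adjusted p. The authors' deposited table comes from DESeq2 as well, so it is no separate line of evidence. Clu was the only 1 of the 31 under 0.05 there, against 3.71% of all genes with an adjusted p. In none of the 31 did the values of one genotype lie wholly above those of the other. Over all genes tested 2.09% were separated that way, a share so low that 0 of 31 is no contrast. In whole tissue, fewer cells of a type and less RNA per cell cannot be told apart.

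The differences were small in size as well as in evidence. Fold changes ran from −0.107 for Gdf10 to 0.088 for Cst3 on the log2 scale (cKO over WT), with a median of 0.013 over the 31 genes and −0.0003 over all genes tested. In size the median was 0.020 for the 31 and 0.045 for all genes, and 26 of the 31 lay within 0.05 of 0. The standard error of a fold change had a median of 0.032 for the 31 genes and 0.043 for all genes. Mean levels of the 31 were at least 23.1 CPM, whereas the genes tested include much rarer ones. These medians were not matched for level. The 95% intervals, each for 1 gene and not adjusted for their number, reached at most 0.179 from 0 (Gdf10), which is a fold of 1.13, and 18 of the 31 stayed within 0.1, a fold of 1.07. Signs were mixed, with 20 positive and 11 negative fold changes (49.8% positive over all genes).

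**Figure D2:**
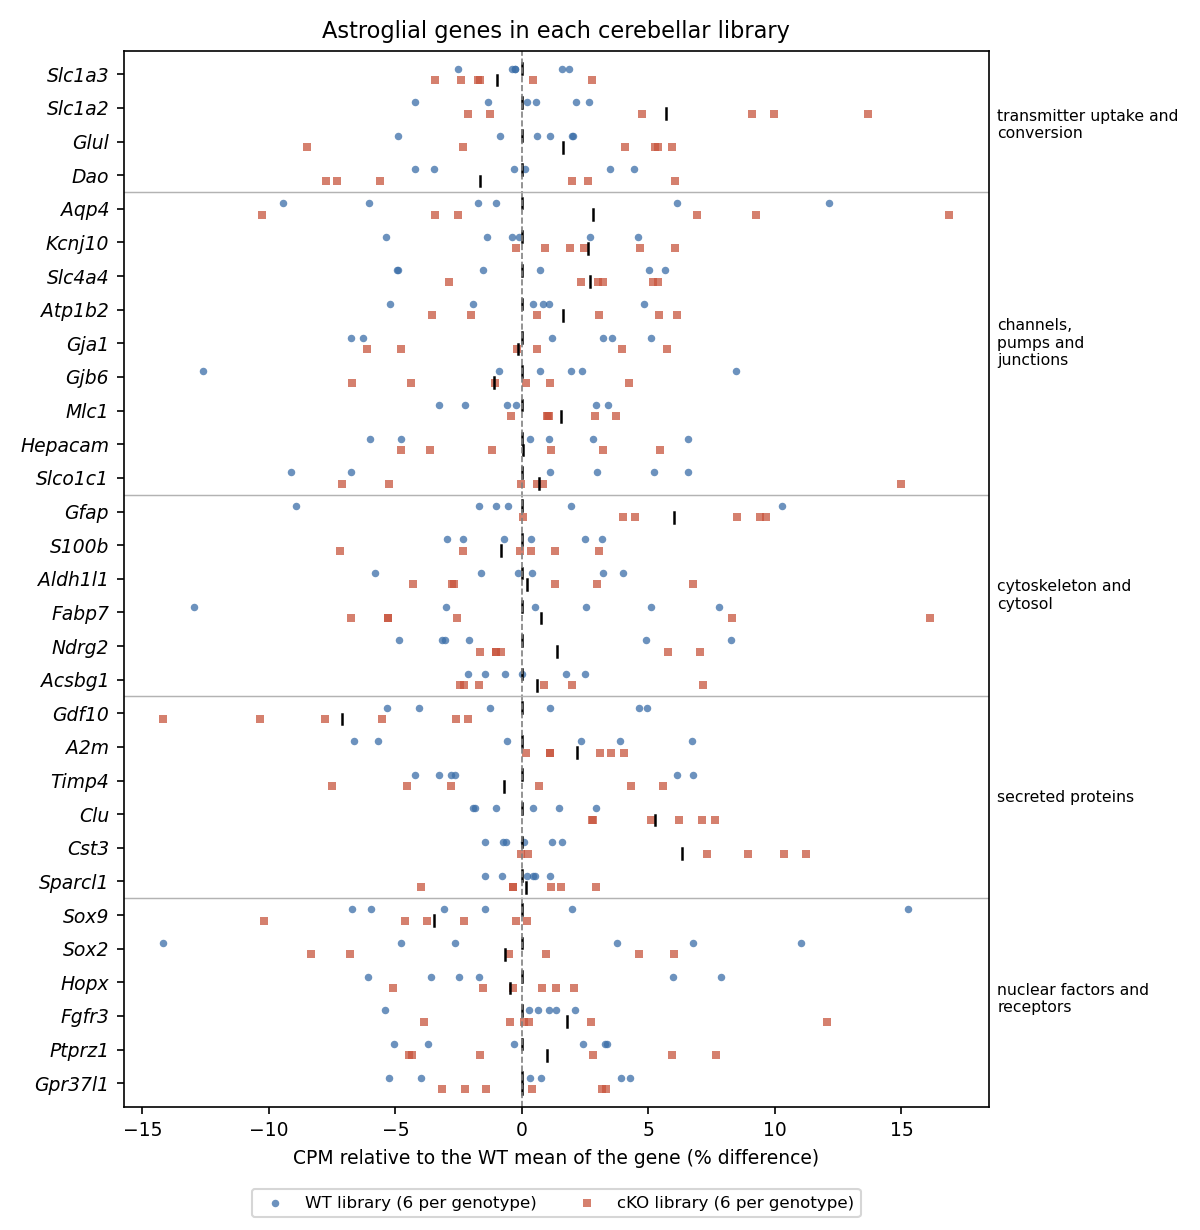
CPM of each gene in each of 6 WT libraries (blue circles) and 6 cKO libraries (red squares), as percent difference from the mean of the WT libraries; black ticks are group means and rows are grouped by role. The libraries of both genotypes overlap in all 31 genes, and the largest shifts of the mean are those of Gdf10, Cst3, Gfap, Slc1a2 and Clu.

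**Figure D3:**
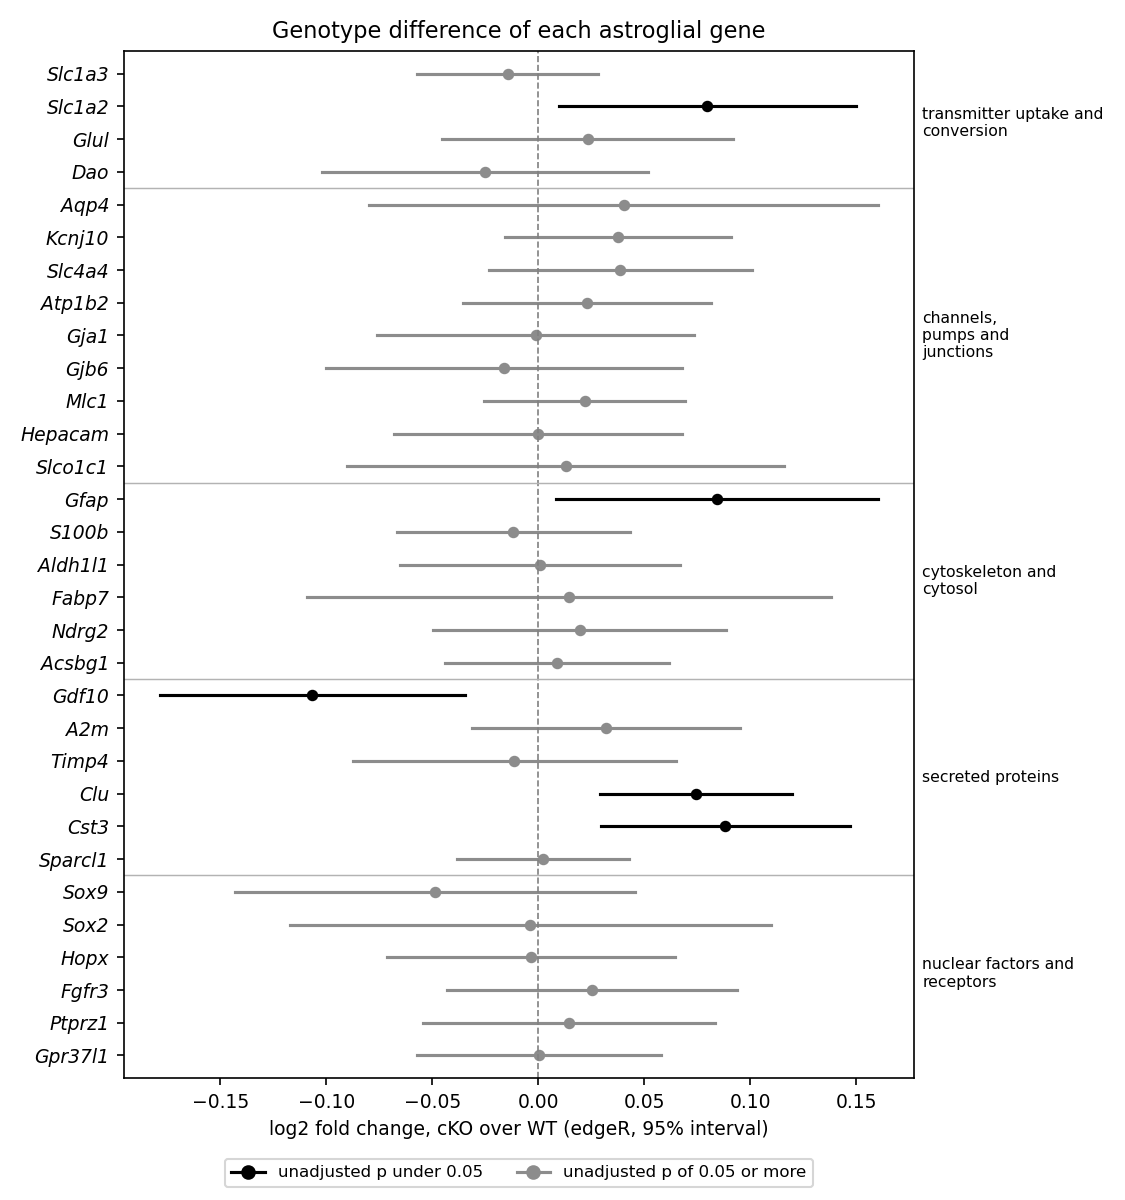
Log2 fold change (cKO over WT) of each gene with its 95% interval from edgeR; black marks the 5 genes with an unadjusted p under 0.05. The intervals of 26 genes include 0, and no interval reaches beyond 0.179 from 0.

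Genes that take up and convert transmitters were Slc1a3, Slc1a2, Glul and Dao. Slc1a3, also known as GLAST, measured 1411, 1444 and 1475 CPM in WT (lowest, median and highest of 6 libraries) and 1398, 1424 and 1488 CPM in cKO. The cKO range enclosed that of WT, with a log2 fold change of −0.014 (SE 0.020, 95% interval −0.057 to 0.028, edgeR adjusted p = 0.819). Slc1a2, also known as GLT-1 (chromosome 2, 102658659 to 102790784, mm10), measured 792, 830 and 849 CPM in WT and 809, 884 and 940 CPM in cKO. In 4 of 6 cKO libraries it was above every WT library, and in cKO replicates 4 and 5 it was within the WT range (log2 fold change 0.080, SE 0.033, 95% interval 0.010 to 0.150, edgeR adjusted p = 0.273). Glul, the enzyme that turns glutamate into glutamine, had 809, 858 and 868 CPM in WT and 779, 891 and 901 CPM in cKO. Here 4 cKO libraries were above all WT libraries and 1 was below all of them, so that the groups differed little in mean (0.023, SE 0.033, edgeR adjusted p = 0.818). Dao degrades D-serine, a co-agonist of NMDA receptors, and was detected at 72.5 ± 2.55 CPM in WT, against 71.3 ± 4.29 CPM in cKO (SD, n = 6 each; log2 fold change −0.025, edgeR adjusted p = 0.824).

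Among the 9 channels, pumps, transporters and junction proteins, log2 fold changes lay between −0.016 and 0.040 and edgeR adjusted p-values between 0.55 and 0.999. Aqp4, the water channel of astrocyte endfeet, was the most variable of the 31 genes within groups, with a mean coefficient of variation of 8.81%. It measured 326, 355 and 404 CPM in WT and 323, 368 and 421 CPM in cKO, so both genotypes covered nearly the same range (log2 fold change 0.040, SE 0.057, 95% interval −0.080 to 0.161, edgeR adjusted p = 0.819). Kcnj10, the inward rectifier Kir4.1 that carries potassium into astroglia, measured 289, 305 and 320 CPM in WT and 305, 312 and 324 CPM in cKO. In 2 of 6 cKO libraries it was above all WT libraries, and in none below (0.037, SE 0.025, edgeR adjusted p = 0.55). Slc4a4, a sodium bicarbonate cotransporter, had a log2 fold change of 0.039 (SE 0.030) and Atp1b2, the β2 subunit of the sodium pump, one of 0.023 (SE 0.028).

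Astroglia are joined by gap junctions of connexin 43 and connexin 30. Gja1, which encodes connexin 43, had 221 ± 11.5 CPM in WT, against 220 ± 10.3 CPM in cKO (SD, n = 6 each; log2 fold change −0.0011, 95% interval −0.076 to 0.074). Gjb6, which encodes connexin 30, had 76.6 ± 5.32 and 75.7 ± 3.004 CPM (SD, n = 6 each; log2 fold change −0.016, 95% interval −0.100 to 0.068). Mlc1 and Hepacam encode partner proteins of astrocyte contacts, mutated in a childhood leukodystrophy. Their log2 fold changes were 0.022 (SE 0.023) and −0.0002 (SE 0.032). Slco1c1, a thyroxine transporter found in astrocytes and in brain endothelium, had 50.4 ± 3.26 CPM in WT, against 50.8 ± 3.91 CPM in cKO (SD, n = 6 each; log2 fold change 0.013).

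Of the cytoskeletal and cytosolic markers, Gfap alone had an unadjusted p under 0.05. Gfap, the intermediate filament protein that is abundant in reactive astrocytes, measured 120, 130 and 145 CPM in WT and 131, 140 and 144 CPM in cKO. All 6 cKO values lay inside the WT range, since WT replicate 4 was the highest of the 12 libraries (log2 fold change 0.084, SE 0.036, 95% interval 0.009 to 0.160, edgeR adjusted p = 0.289). Gfap lies 1.23 Mb from Crhr1 (chromosome 11, 102887336 to 102900912, mm10), and a difference there and one of linked DNA cannot be told apart in this design. Sox9 and Atp1b2 are on chromosome 11 too, 8.61 and 34.53 Mb from Crhr1. Atp1b2 is also 27.28 Mb from Gabra6. S100b measured 400, 412 and 425 CPM in WT and 383, 413 and 425 CPM in cKO (−0.012, SE 0.026). Aldh1l1, a folate enzyme used as a marker of all astrocytes, had 67.8 ± 2.40 CPM in WT, against 68.0 ± 2.86 CPM in cKO (SD, n = 6 each; log2 fold change 0.0007, 95% interval −0.065 to 0.067). Fabp7, a fatty acid binding protein of radial and Bergmann glia, had the widest standard error of the 31 genes (log2 fold change 0.014, SE 0.059, 95% interval −0.109 to 0.138). Ndrg2 and Acsbg1, a fatty acid activating enzyme, had log2 fold changes of 0.020 (SE 0.033) and 0.0087 (SE 0.025).

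The 3 genes with the smallest p among the 31, Clu, Cst3 and Gdf10, all encode secreted proteins. Clu (chromosome 14, 65968483 to 65981547), which encodes the extracellular chaperone clusterin, measured 360, 366 and 378 CPM in WT and 378, 388 and 395 CPM in cKO. In 4 of 6 cKO libraries Clu was above all WT libraries, and the other 2 overlapped only with the highest WT library, replicate 5. The mean was 5.28% higher in cKO (log2 fold change 0.074, SE 0.022, 95% interval 0.029 to 0.120). The edgeR adjusted p was 0.0794, whereas DESeq2 gave a log2 fold change of 0.075 with an adjusted p of 0.00800. The authors' deposited DESeq2 table lists a log2 fold change of 0.072 with an adjusted p of 0.00802 for Clu. Clu is thus on different sides of the threshold in the 2 tools, at the same size. DESeq2 was the only 1 of the 24 alternatives to call Clu. In the 12 alternatives that did not leave out a single library, the log2 fold change of Clu was 0.058 to 0.079. Adjusted p-values there (edgeR, DESeq2 or limma) were 0.008 to 0.508.

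Cst3 (chromosome 2, 148871722 to 148875692) encodes cystatin C, an inhibitor of cysteine proteases that microglia and choroid plexus make as well as astroglia. It measured 234, 237 and 241 CPM in WT and 237, 257 and 264 CPM in cKO. In 4 cKO libraries, at 255 to 264 CPM, it was above all WT libraries, and cKO replicates 4 and 6 were inside the WT range. The WT values varied little, with a coefficient of variation of 1.17% against 4.70% in cKO, and its log2 fold change came to 0.088 (SE 0.028, 95% interval 0.029 to 0.147, edgeR adjusted p = 0.121). Without cKO replicate 4 its edgeR adjusted p was 0.0441, and without cKO replicate 6 it was 0.0427, at log2 fold changes of 0.106 and 0.105. All 12 fits that each left out 1 library gave a positive fold change for Cst3 (0.075 to 0.106, edgeR adjusted p = 0.0427 to 0.227). With surrogate variables its fold change was much smaller, 0.020 (SE 0.031, edgeR adjusted p = 0.903). Microglia markers moved in the same direction: 12 of 12 had positive fold changes, against 49.8% of all genes tested. Their summed level was 175 to 191 CPM in WT and 185 to 217 CPM in cKO. Of the choroid plexus and ependymal markers, 3 had positive and 8 negative fold changes (median log2 fold change −0.053). Endothelial markers had 11 positive and 1 negative (median 0.043). The part of these markers in the value of Cst3 was not tested.

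Gdf10 (chromosome 14, 33923587 to 33937983), a BMP family ligand used as a marker of Bergmann glia, had the lowest fold change. Its values were 155, 164 and 172 CPM in WT and 141, 153 and 161 CPM in cKO, with 4 of 6 cKO libraries below all WT libraries (log2 fold change −0.107, SE 0.034, 95% interval −0.179 to −0.035, edgeR adjusted p = 0.128, DESeq2 adjusted p = 0.0741). It stayed between −0.122 and −0.084 when any 1 library was left out (edgeR adjusted p = 0.0734 to 0.281). In the other 12 alternatives it was −0.111 to −0.073, with adjusted p-values (edgeR, DESeq2 or limma) of 0.0741 to 0.48. The other secreted proteins had fold changes nearer to 0. A2m, the protease inhibitor α2-macroglobulin, had 116 ± 6.20 CPM in WT, against 119 ± 1.84 CPM in cKO (SD, n = 6 each; log2 fold change 0.032, edgeR adjusted p = 0.702). Timp4, an inhibitor of matrix metalloproteinases, had 127 ± 6.36 and 126 ± 6.497 CPM (SD, n = 6 each; log2 fold change −0.011). Its exons overlap those of Syn2 on the opposite strand, and since the strand setting of the counting is not known, reads of both could mix. Exons of Glul, Slc1a2, Aldh1l1, Hopx and Fgfr3 also overlap other annotated transcripts. Sparcl1 was the steadiest gene, with a mean coefficient of variation of 1.66%, and measured 2205, 2245 and 2262 CPM in WT and 2148, 2247 and 2303 CPM in cKO (log2 fold change 0.0022, 95% interval −0.039 to 0.043).

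Nuclear factors and receptors had log2 fold changes from −0.049 to 0.025, with edgeR adjusted p-values of 0.693 to 0.998. Sox9, a factor that specifies glia, had 34.4 ± 2.79 CPM in WT, against 33.2 ± 1.30 CPM in cKO (SD, n = 6 each). Its negative fold change of −0.049 (SE 0.045) came with 1 high WT library, replicate 2, at 39.6 CPM. Sox2, which marks neural stem cells and astroglia, had 35.4 ± 3.21 and 35.2 ± 2.08 CPM (SD, n = 6 each; log2 fold change −0.0037). Hopx, a homeodomain-only protein enriched in Bergmann glia, had 112 ± 6.26 and 111 ± 2.91 CPM (SD, n = 6 each; log2 fold change −0.0036). The fibroblast growth factor receptor Fgfr3 had a log2 fold change of 0.025 (SE 0.033). Ptprz1, a receptor phosphatase, and Gpr37l1, an orphan receptor prominent in Bergmann glia, had log2 fold changes of 0.014 (SE 0.033) and 0.0003 (SE 0.027).

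Libraries of 1 genotype differed little over the 31 genes. Within groups the median coefficient of variation was 4.18%, against 5.16% over all genes tested, which were not matched for level. In WT replicate 2, 24 of the 31 genes were above the WT mean and in cKO replicate 2, 23 were above the cKO mean, the highest counts in each genotype. At the other end stood WT replicate 5 with 12 and cKO replicate 4 with 11. These shifts were slight: the median distance of the 31 genes from their own group mean ran from −0.034 (cKO replicate 4) to 0.045 (WT replicate 2) on the log2 scale.

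Markers of forebrain and midbrain tissue varied between libraries, and the astroglial genes were set beside them. A score of 12 such markers (mean log2 CPM, centred over the 12 libraries) ran from −0.67 to 0.35 in WT and from −0.30 to 0.55 in cKO (exact two-sided permutation test of the means, p = 0.0974). The 4 highest scores were those of cKO replicates 1, 2 and 3 and WT replicate 5. Slc1a2 was at 909, 940 and 902 CPM in those cKO libraries and at 809 to 866 CPM in the other 3. Without the 4 libraries its log2 fold change was 0.0071 (SE 0.034, edgeR adjusted p = 0.971), and with the score as a covariate it was 0.051 (SE 0.038, edgeR adjusted p = 0.655). For Gfap the corresponding values were 0.039 (SE 0.048) and 0.053 (SE 0.041), and for Cst3 they were 0.053 (SE 0.035) and 0.058 (SE 0.031). With surrogate variables Slc1a2 was at 0.034 (SE 0.026, edgeR adjusted p = 0.758) and Gfap at 0.040 (SE 0.041, edgeR adjusted p = 0.846). Gdf10 stayed at −0.108 (SE 0.038) without the 4 libraries and was at −0.073 (SE 0.038) with the score, and Clu was at 0.079 (SE 0.029) and 0.069 (SE 0.026).

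Over the 12 libraries the log2 level of Cst3 had a Pearson correlation of 0.69 with the score (permutation p = 0.0139, adjusted p = 0.270) and a Spearman correlation of 0.76 (permutation p = 0.00603, adjusted p = 0.102). The Pearson correlation was 0.74 without the 2 libraries farthest from the median score, WT replicates 1 and 2. It was 0.28 within WT and 0.80 within cKO. Slc1a3 had a negative Pearson correlation, −0.67 (permutation p = 0.0174, adjusted p = 0.270), and a Spearman correlation of −0.76 (permutation p = 0.00655, adjusted p = 0.102). Its Pearson correlation was −0.76 without those 2 libraries, −0.55 within WT and −0.76 within cKO. Gdf10 had −0.63 (permutation p = 0.0273, adjusted p = 0.282; Spearman −0.66, permutation p = 0.0219, adjusted p = 0.226), but −0.44 without those 2 libraries, with −0.66 within WT and −0.27 within cKO. For Slc1a2 the correlation was 0.55 (permutation p = 0.0617, adjusted p = 0.349; Spearman 0.48, permutation p = 0.114, adjusted p = 0.295) and 0.71 without those 2 libraries, and its sign differed between −0.25 within WT and 0.78 within cKO. Of the 31 correlations, 1 for each gene, 0 passed after adjustment over all 31. The part of forebrain and midbrain tissue in the differences between genotypes was not tested. The fits above cannot fully separate the score from genotype, since its mean was −0.19 in WT and 0.19 in cKO.

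**Figure D4:**
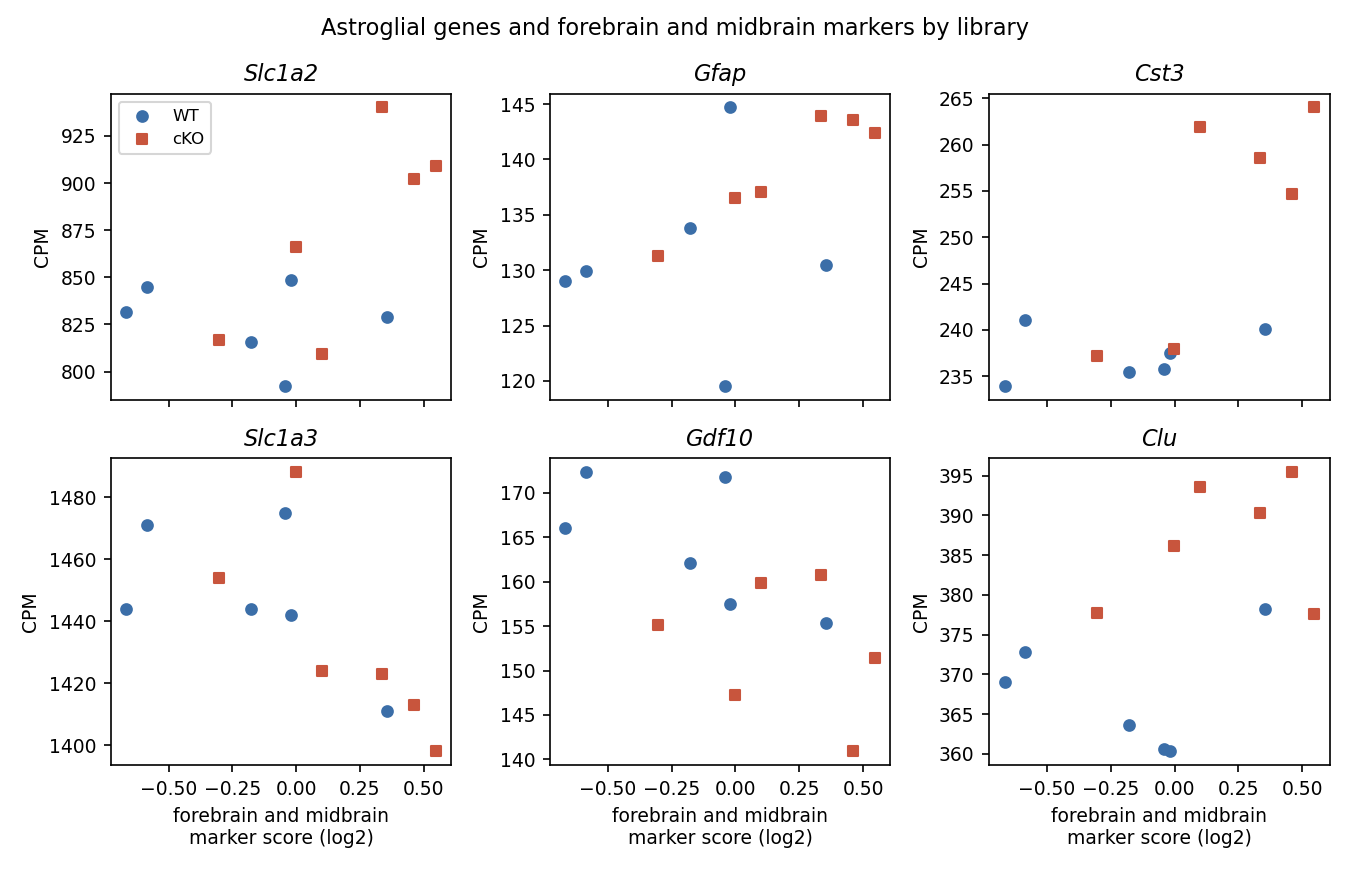
CPM of 6 astroglial genes (vertical axes) against the forebrain and midbrain marker score (horizontal axes, log2 units) in 6 WT libraries (blue circles) and 6 cKO libraries (red squares). The 3 cKO libraries with the highest scores hold the 3 highest Slc1a2 values (902 to 940 CPM), and the 4 libraries with the highest scores hold the 4 lowest Slc1a3 values.

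Other astroglial genes were followed by function. In 9 lists that cover astroglial functions, 159 further genes were tested, of which 1 was called higher and 0 lower in cKO (0.629%, against 2.64% of all genes), and 26 had an unadjusted p under 0.05 (16.4%, against 14.2%). Their median log2 fold change was 0.015. The gene called was Pygm (chromosome 19, 6384399 to 6398459), the muscle-type glycogen phosphorylase, which astrocytes also express. Pygm measured 69.9, 72.0 and 76.1 CPM in WT and 77.2, 81.8 and 86.8 CPM in cKO, so that all 6 cKO libraries were above all WT libraries. It rose by 13.3% (log2 fold change 0.18, SE 0.031, 95% interval 0.12 to 0.24, edgeR adjusted p = 0.00193). In 2 settings Pygm missed the threshold: the fit with surrogate variables gave 0.13 (SE 0.037, edgeR adjusted p = 0.103), and dropping the 4 libraries named above gave 0.17 (SE 0.042, edgeR adjusted p = 0.086).

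Pygm was the 1 call among 16 tested genes of glycogen, lactate, fatty acid and serine metabolism (median log2 fold change 0.034). In that list the brain-type phosphorylase Pygb had a log2 fold change of 0.051 (SE 0.023, edgeR adjusted p = 0.327), and Acadl, a dehydrogenase of fatty acid oxidation, one of −0.14 (SE 0.045, edgeR adjusted p = 0.119). Acadl passed without WT replicate 5 (−0.18, edgeR adjusted p = 0.0177), but it was at −0.028 with surrogate variables (edgeR adjusted p = 0.922) and at −0.093 with the forebrain and midbrain score as a covariate (edgeR adjusted p = 0.482). Of 29 further astroglial markers 0 were called and 21 had positive fold changes (median 0.023). The smallest p-values there were those of the mitochondrial glutamate carrier Slc25a18 (0.088, SE 0.035), the claudin Cldn10 (0.096, SE 0.039) and Tril (0.057, SE 0.025), with edgeR adjusted p-values of 0.246 to 0.288.

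For glutamate and glutamine handling 0 of 15 genes were called (median 0.019). The glutamine transporter Slc38a5 had a log2 fold change of 0.36 at a low level, 3.16 ± 0.870 CPM in WT, against 4.12 ± 0.507 CPM in cKO (SD, n = 6 each; edgeR adjusted p = 0.246). The neuronal glutamate transporter Slc1a1 and the amino acid transporter Slc38a1 had −0.078 (SE 0.032) and −0.044 (SE 0.020), with edgeR adjusted p-values of 0.254 and 0.341. For glycine, D-serine and GABA handling 0 of 11 were called (median 0.006). The GABA transporter Slc6a11, abundant in astrocytes outside the cerebellar cortex, measured 66.4, 75.1 and 87.0 CPM in WT and 62.1, 89.8 and 103 CPM in cKO (log2 fold change 0.19, SE 0.096, edgeR adjusted p = 0.389), and with the forebrain and midbrain score as a covariate its fold change turned to −0.022. Serine racemase, Srr, which makes D-serine, and the D-aspartate oxidase gene Ddo had −0.069 (SE 0.032) and −0.12 (SE 0.047), with edgeR adjusted p-values of 0.343 and 0.242.

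Among 14 genes of potassium, water, acid-base balance and gap junctions 0 were called, and 9 had negative fold changes (median −0.023). Atp1b1, the β1 subunit of the sodium pump, which neurons express strongly, measured 1551, 1593 and 1632 CPM in WT and 1436, 1521 and 1574 CPM in cKO, with 5 of 6 cKO libraries below all WT libraries (log2 fold change −0.077, SE 0.023, edgeR adjusted p = 0.0828, DESeq2 adjusted p = 0.0244). The potassium channel gene Kcnj16 had a log2 fold change of 0.061 (SE 0.033, edgeR adjusted p = 0.431). Of 15 surface receptor and calcium signalling genes 0 were called (median 0.019), and the genes with the smallest p, Fgfr2, Ednrb and Fgfr1, had log2 fold changes of 0.066, 0.080 and 0.072 (edgeR adjusted p = 0.283 to 0.394).

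Of 18 transcription factors and Hedgehog effectors 0 were called (median 0.027). Nfib, a nuclear factor I gene that promotes glial differentiation, measured 144, 148 and 155 CPM in WT and 149, 161 and 172 CPM in cKO. In 5 of 6 cKO libraries it was above all WT libraries (log2 fold change 0.10, SE 0.030, edgeR adjusted p = 0.0717, DESeq2 adjusted p = 0.0285). Nfib passed edgeR with surrogate variables (0.15, adjusted p = 0.0325), with counts thinned to the smallest library (0.11, adjusted p = 0.0483) and without cKO replicate 5 (0.13, adjusted p = 0.00931). It did not pass with the forebrain and midbrain score as a covariate (0.12, edgeR adjusted p = 0.113) or without the 4 libraries named above (0.087, edgeR adjusted p = 0.542). Hes5, a target of Notch, stood near 1 CPM (0.971 ± 0.113 in WT, against 1.26 ± 0.195 in cKO, SD, n = 6 each; edgeR adjusted p = 0.207). Lhx2 was rarer still, at 0.492 ± 0.447 CPM in WT, against 0.986 ± 0.487 CPM in cKO (SD, n = 6 each; edgeR adjusted p = 0.295), and without WT replicate 5 it passed, at a log2 fold change of 1.40 (edgeR adjusted p = 0.0362). The fold change of Lhx2 was 0.89 with all libraries, 0.19 with the forebrain and midbrain score as a covariate (edgeR adjusted p = 0.8) and −0.067 with surrogate variables (edgeR adjusted p = 0.972).

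Reactive astrocytes are marked by inflammatory, complement and filament genes. Of 27 such genes 0 were called, 17 had positive and 10 negative fold changes, and the median was 0.027. Serping1, the C1 inhibitor, measured 21.9, 24.3 and 25.6 CPM in WT and 19.5, 20.9 and 25.0 CPM in cKO (log2 fold change −0.18, SE 0.055, edgeR adjusted p = 0.105). It passed without cKO replicate 2 (−0.23, adjusted p = 0.0104) as well as with the 4 libraries named above left out (−0.21, adjusted p = 0.0444), but not with that score as a covariate (−0.155, edgeR adjusted p = 0.331) or with surrogate variables (−0.16, edgeR adjusted p = 0.501). Timp1, an inhibitor of metalloproteinases, was rare, at 0.530 ± 0.0559 CPM in WT, against 0.741 ± 0.184 CPM in cKO (SD, n = 6 each; edgeR adjusted p = 0.200), and the intermediate filament gene Nes had a log2 fold change of 0.15 (SE 0.057, edgeR adjusted p = 0.236). Of 14 secreted and engulfment genes that act at synapses 0 were called (median 0.013). The phagocytic receptor Megf10 of astroglia had −0.090 (SE 0.034), and the matrix genes Tnc and Ncan had 0.13 (SE 0.060) and 0.13 (SE 0.058), with edgeR adjusted p-values of 0.206 to 0.336.

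**Figure D5:**
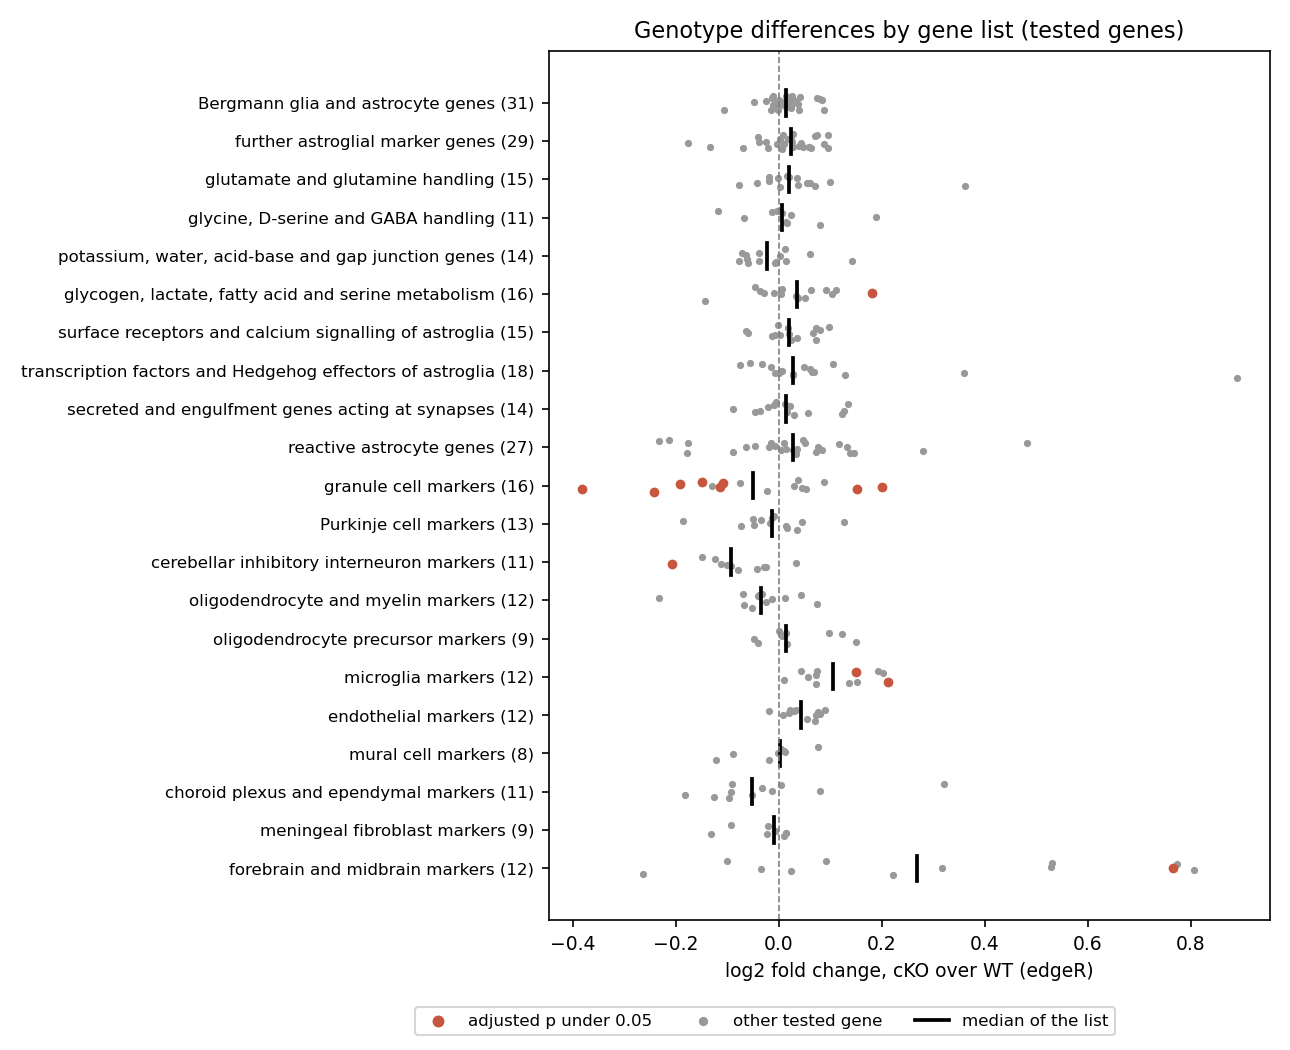
Log2 fold change (cKO over WT) of every tested gene in each list, with the number tested in parentheses; red marks genes called by edgeR and black bars mark list medians. The 31 Bergmann glia and astrocyte genes (top row) lie between −0.107 and 0.088 with none called, and Pygm is the 1 red point in the 9 astroglial lists below them.

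Markers of other cells in the same tissue were tested in the same fit. Over all genes tested, 1.27% were called higher and 1.38% lower in cKO, and 49.8% had positive fold changes. Of 16 granule cell markers 2 were called higher and 6, with Gabra6 among them, lower. The summed level of these markers was 9367 to 9746 CPM in WT and 9007 to 9765 CPM in cKO. Of 11 inhibitory interneuron markers 10 had negative fold changes and 1, Lgi2, was called, with summed levels of 942 to 972 CPM in WT and 826 to 931 CPM in cKO, ranges that did not overlap. All 12 microglia markers had positive fold changes and 2, Cx3cr1 and Csf1r, were called, with the summed levels given beside Cst3. Forebrain and midbrain markers summed to 25.2 to 40.7 CPM in WT and 27.9 to 46.5 CPM in cKO, and 3 markers of that list had no counts in at least 1 library and were not tested. No gene was called among markers of Purkinje cells (13), oligodendrocytes (12), their precursors (9), endothelium (12), mural cells (8), choroid plexus and ependyma (11) or meninges (9). The part of these other cells in the values of the astroglial genes was not tested.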

How the data were processed

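Cerebellar mRNA of 12 mice (6 WT, 6 cKO, by the genotype label) was compared; replicate numbers follow deposit order. Raw counts of reads were deposited by gene symbol; library totals ran from 23803779 to 62104185 (WT against cKO, exact two-sided permutation test of their means, p = 0.0974 over 924 assignments). STAR, DESeq2 and mm10 are named per the submitters' processing notes; which tool counted the reads, with which strand setting and annotation, is not given in the sources used here. The authors also deposited a DESeq2 table with log2 fold changes, p-values and adjusted p-values; its direction was taken from the 400 genes that both fits called, which all had the same sign. Columns were matched by identifier, with 0 left unmatched.

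In R 4.3.3, edgeR 4.0.16 was run with filterByExpr (15467 genes kept), TMM and the quasi-likelihood test (glmQLFit, glmQLFTest), with no covariate and an adjusted p under 0.05 as the threshold. The test statistic gave the standard errors and 95% intervals. Alternatives used DESeq2 1.42.0, limma 3.58.1 (voom), sva 3.50.0 (3 surrogate variables), other scalings and filters, marker scores, thinned counts and left-out libraries. Marker scores used log2 CPM with a prior count of 0.5. Correlations used 100000 permutations. Within each genotype, no 2 libraries were as alike as counting noise alone would make them (lowest chi-square over its degrees of freedom 2.68), so each was counted as 1 sample. Gene positions and exon lengths came from GENCODE M21 (mm10), matched by symbol for 31 of 31 genes. The fit was tested on simulated counts. The 31 genes and all lists were chosen with earlier results of these data known. All 31 are named; of each astroglial list, the 3 genes with the smallest p and every call, except items that are not reported here. Hemoglobin genes and Plpp3 of the lists were not analysed here.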

Additional observations from a re-analysis of the deposited data

Results flagged for a closer look

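Values that stood apart from their own group were looked for in the 31 markers and the 27 named genes of the astroglial lists, over 116 groups of 6 libraries. In 4 groups (3.45%) the gap of the highest or lowest library to its neighbour exceeded the 95% critical value of Dixon for 6 values, where chance gives about 1 in 20. Slc4a4 was low in cKO replicate 5, at 540 CPM (gap 0.632 of the range). Fgfr3 was low in WT replicate 2, at 77.5 CPM (0.758). Slco1c1 was high in cKO replicate 6, at 58.0 CPM (0.642), which is also the cKO library with the highest choroid plexus marker score. Lhx2 was high in WT replicate 5, at 1.35 CPM (0.696), which is also the WT library with the highest forebrain and midbrain score. Whether those markers bear on these 2 values was not tested.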

How the results depend on the processing

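Over all genes 409 were called, against 189 with surrogate variables, 242 with the forebrain and midbrain score as a covariate, 157 without the 4 libraries highest in that score (chosen after seeing the data) and 272 (without WT replicate 3) to 459 when 1 library was left out. The number of the 31 genes called higher was 0 as reported, 1 with DESeq2 (Clu) and 0 to 1 when 1 library was left out (Cst3, without cKO replicate 4 or 6), and the number called lower was 0 in all 24 alternatives. Of the 159 further genes 1 was called, against 3 with DESeq2 (Pygm, Atp1b1 and Nfib), 2 with thinned counts and 1 to 3 when 1 library was left out (3 without WT replicate 5, 2 without cKO replicate 2 or 5). Of the 31 genes 10 kept their sign in all 24 alternatives (A2m, Clu, Cst3, Gdf10, Gfap, Kcnj10, Mlc1, Slc1a2, Slc4a4 and Sox9). The other 21 had a fold change of at most 0.040 in size and changed sign at least once, never past the threshold. No paired analysis was possible because replicate numbers here follow the order of deposit and pair no mice between the genotypes.

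The log2 fold changes with a changed sign were as follows, and the cause was not tested. With surrogate variables they were Slc1a3 0.027, Aldh1l1 −0.0198, Hopx 0.042, Gja1 0.0493, Gjb6 0.0002, S100b 0.0061, Ndrg2 −0.0273, Glul −0.0781, Atp1b2 −0.0173, Sox2 0.0508, Sparcl1 −0.0253, Gpr37l1 −0.0083, Slc6a11 −0.1134, Lhx2 −0.0666 and Ncan −0.0027. With the forebrain and midbrain score they were Slc1a3 0.0052, Hopx 0.0345, Gja1 0.0115, Gjb6 0.0255, S100b 0.0108, Timp4 0.0207, Glul −0.0065, Sox2 0.0069, Sparcl1 −0.0131, Slco1c1 −0.0078, Dao 0.0097 and Slc6a11 −0.0215. Without the 4 libraries highest in that score they were Slc1a3 0.0001, Aqp4 −0.0256, Aldh1l1 −0.0196, S100b 0.0201, Glul −0.0273 and Sparcl1 −0.0215. With the oligodendrocyte score they were Hopx 0.0066, Gja1 0.0341, Fabp7 −0.0212, Sox2 0.0435, Hepacam 0.0109 and Gpr37l1 −0.0134. With thinned counts they were Aldh1l1 −0.0227, Hopx 0.0072, Gja1 0.0042, Hepacam 0.0066 and Gpr37l1 −0.0035. With limma-voom they were Aldh1l1 −0.002, Hopx 0.0004, Gja1 0.0003 and Sox2 0.0083. Without the 2 libraries highest in the choroid plexus score (chosen after seeing the data) they were Gjb6 0.0027, Timp4 0.0008, Slco1c1 −0.0115 and Gpr37l1 −0.0069. Gja1 was 0.0013 with upper quartile scaling and 0.0004 with no filter, and Hepacam was 0.0021 and 0.0012 there, 0.0004 with the size factors of DESeq2 and with its test, and 0.0002 with a minimum mean of 1 CPM. Leaving out 1 library gave Aldh1l1 −0.019 to 0.0139, Hopx −0.022 to 0.0195, Gja1 −0.0196 to 0.017, Gjb6 −0.051 to 0.0078, Fabp7 −0.0323 to 0.0363, S100b −0.0223 to 0.0065, Timp4 −0.0291 to 0.0088, Sox2 −0.0505 to 0.0283, Hepacam −0.0165 to 0.0184, Acsbg1 −0.0102 to 0.0176, Fgfr3 −0.0043 to 0.0425, Sparcl1 −0.0058 to 0.015, Slco1c1 −0.0306 to 0.0368, Ptprz1 −0.0049 to 0.0299 and Gpr37l1 −0.0145 to 0.0129. The 31 genes had at least 590 counts in each library, and with counts thinned to the smallest library the standard error of Fabp7, the gene with that count, was 0.063 in place of 0.059.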
